A study of Arabidopsis thaliana with 12 samples.

Results

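The NAC transcription factors (named after NAM, ATAF and CUC) of Arabidopsis were followed across 4 genotypes in whole seedlings at an age of 8 d. A gene was taken as a NAC gene where a symbol in the deposited annotation reads NAC or ANAC followed by a number, or where its putative function names a NAC domain containing protein or a No Apical Meristem protein. The rule used names alone and no measured value. It found 113 genes among 33602, of which 99 matched by symbol, 101 by function and 87 by both. In the TAIR10.1 annotation of RefSeq, 112 of them are protein coding and 1, AT4G13611, is a pseudogene. Col-0 is the wild type and the background of every line. The quintuple mutant jazQ carries T-DNA or transposon insertions in JAZ1, JAZ3, JAZ4, JAZ9 and JAZ10, mycT carries the T-DNA alleles myc2-1 (jin1-7, SALK_040500), myc3-1 (GK-445B11) and myc4-1 (GK-491E10), and the octuple mutant jazQ mycT carries all 8 mutations. No line received jasmonate. Seedlings grew in continuous light on medium with sucrose, about 200 seedlings with their roots were pooled for each RNA sample, and 3 independent samples were sequenced per genotype. The Col-0 and jazQ libraries were first used in an earlier study, and the methods of the study state that all lines were grown and processed in parallel. A library from whole seedlings cannot tell fewer cells of a type from less RNA per cell.

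NAC proteins bind DNA through a conserved domain near the N terminus and carry a variable C-terminal part that activates or represses transcription. Members of the family promote or delay leaf senescence, answer drought, salt and jasmonate, switch on the secondary walls of xylem vessels and fibres, shape organ boundaries, lateral roots and the root cap, and wait at membranes until stress releases them. Jasmonate reaches some of them through MYC2 and its relatives MYC3 and MYC4, which JAZ repressors hold back until the hormone triggers the destruction of the JAZ proteins. The MYC proteins bind the G-box and close variants of it. ANAC019, ANAC055 and RD26 (ANAC072) are known targets of MYC2, and a subset of NAC transcripts, ORE1 among them, is cut under the guidance of the microRNA miR164.

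The microRNA and its sites in the NAC transcripts are shown first because the NAC gene with the largest fall in jazQ mycT, ORE1, carries one. The mature sequences from RefSeq (TAIR10.1) are given 5′ to 3′ with the seed, bases 2 to 8, in capitals, and the mature strands of miR164a and miR164b are identical.
ath-miR164a, chr2:19520770-19520790, plus strand: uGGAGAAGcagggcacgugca
ath-miR164c-5p, chr5:9852684-9852704, plus strand: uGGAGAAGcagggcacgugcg
A search for stretches of 21 bases with at most 4 mismatches to the complement of miR164a found sites in 7 of the 112 NAC genes with an annotated mRNA (6.25%), beside 13 of 31342 genes of all kinds (0.0415%). All 7 sites lie in the coding sequence, each within an exon. They are printed in the sense of the transcript, with the bases that differ from the exact complement of miR164a in capitals. A G facing a U was thus counted as a mismatch, although these bases can pair.
ANAC080 site, chr5:2436958-2436978, plus strand: tTTacgtgccctgcttctcca
ANAC100 site, chr5:24701687-24701707, minus strand: tCTacgtgccctgcttctcca
NAC1 site, chr1:20947142-20947162, minus strand: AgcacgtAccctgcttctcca
CUC2 site, chr5:21902301-21902321, minus strand: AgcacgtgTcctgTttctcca
ORE1 site, chr5:15858797-15858817, minus strand: CTcacgtgAcctgcttctccG
The CUC1 site has the same letters as that of CUC2, and the 7th site lies in AT3G12977. The site of ORE1 had 4 mismatches, the sites of CUC1, CUC2 and AT3G12977 had 3, and those of ANAC080, ANAC100 and NAC1 had 2. A match is a description of letters and shows no cleavage.

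The authors deposited expected counts per gene and TPM, a relative abundance that divides out gene length and library total. TPM was used as deposited, without the scaling between libraries (TMM) that edgeR's test applied to counts. Differences in TPM and log2 fold changes from edgeR can therefore differ in size. How many of all genes had no overlap of TPM between genotypes was not counted. Library totals ran from 12336090 to 26347184 counts, and NAC genes took between 0.118% and 0.150% of them. Ribosomal RNA genes of the nucleus and organelles took at most 2.12% of counts except in the first replicate of mycT, with 5.12%, and in that of jazQ mycT, with 11%. The log2 fold changes of the mutated genes in jazQ were −3.25 for JAZ1, −1.21 for JAZ4, 5.46 for JAZ3 and 6.16 for JAZ10, with 0.14 for JAZ9. In mycT they were −0.55 for MYC2, −0.12 for MYC3 and 0.23 for MYC4, and in jazQ mycT MYC2 was at −0.083 and MYC4 was higher than in Col-0 (0.51, edgeR adjusted p = 0.00748). Counts on a gene model do not show whether a transcript is intact. Summed over 11 root markers, TPM ranged from 187 to 200 in Col-0, from 173 to 182 in jazQ, from 192 to 214 in mycT and from 132 to 170 in jazQ mycT, and NRT2.1 was at 0 in 3 libraries, as no other root or shoot marker was. Over 6 shoot markers the sums were 20765 to 23011, 23123 to 24951, 24278 to 28371 and 20314 to 26847 in the same order. The part of root and shoot shares in the results below was not tested.

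NAC expression in these seedlings rested on few genes. The mean over 12 libraries was at least 10 TPM for 28 members and under 1 TPM for 44, and the 10 most abundant members held 57.2% of the summed TPM of the family. VNI2, which represses the vessel regulator VND7 and extends leaf life, led with a mean of 120.6 TPM, next to ANAC102, known from survival of low oxygen, with 120.3 TPM and ATAF2, a repressor of defence genes, with 110.9 TPM. These 3 genes overlapped in range and their order is not separated by the libraries. They were followed by the senescence promoter ORE1 with 57.4 TPM, ANAC078, which acts in the response to proteasome stress, with 55.3 TPM, the dehydration regulator RD26 with 53.8 TPM, the mitochondrial stress regulator ANAC017 with 48.3 TPM, the cold-released membrane protein NTL6 with 42.7 TPM, VNI1 (ANAC082), a factor of the ribosomal stress response, with 41.9 TPM and ATAF1 with 41.8 TPM. This order pools the genotypes, and ORE1, at 91.8 TPM in Col-0, averaged 44.1 TPM in jazQ and only 38.3 TPM in the octuple mutant. In the octuple mutant its mean was the lowest of these 10 members, next to ATAF1 with 38.8 TPM. At the other end 10 members had no count in any library. A further 28 had counts too low for the filter of the test, which asks for enough counts in at least as many libraries as a genotype has, so 75 members were tested. The untested member with the highest mean was AT3G12910 with 0.555 TPM, and the tested member with the lowest had 0.671 TPM. Of the 75 tested members, 61 share no stretch of 50 bases, the read length, with an mRNA of another gene, and 5 share 10% or more of such stretches, so that their reads could be split between genes. AT3G12910, which was singled out after its values were seen, had 35, 13 and 7 counts in jazQ mycT and from 1 to 9 elsewhere, so that jazQ mycT replicate 1 stood above all others and the counts of that genotype overlapped those of Col-0.

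Summed over the family, the TPM of NAC genes was higher in Col-0 than in each mutant. The 113 genes summed to 1371 ± 61.4 TPM in Col-0 (SD, n = 3). The sums were 1178 ± 66.3 TPM for jazQ, 1185 ± 87.0 TPM for mycT and 1112 ± 21.6 TPM for jazQ mycT. The lowest Col-0 library, at 1333 TPM, lay above the highest mutant library, a mycT replicate at 1244 TPM, whereas the mutants overlapped each other. The fall from Col-0 was 192.7 TPM in jazQ and 186.1 TPM in mycT, with 258.6 TPM in jazQ mycT. The 6 members of the senescence list made up 77.8, 59.0 and 87.1 TPM of these falls, and without them the remaining 107 genes still summed to 1167 to 1217 TPM in Col-0 and to at most 1121 TPM in any mutant library. These sums weigh abundant genes most and are given without a test.

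**Figure D1:**
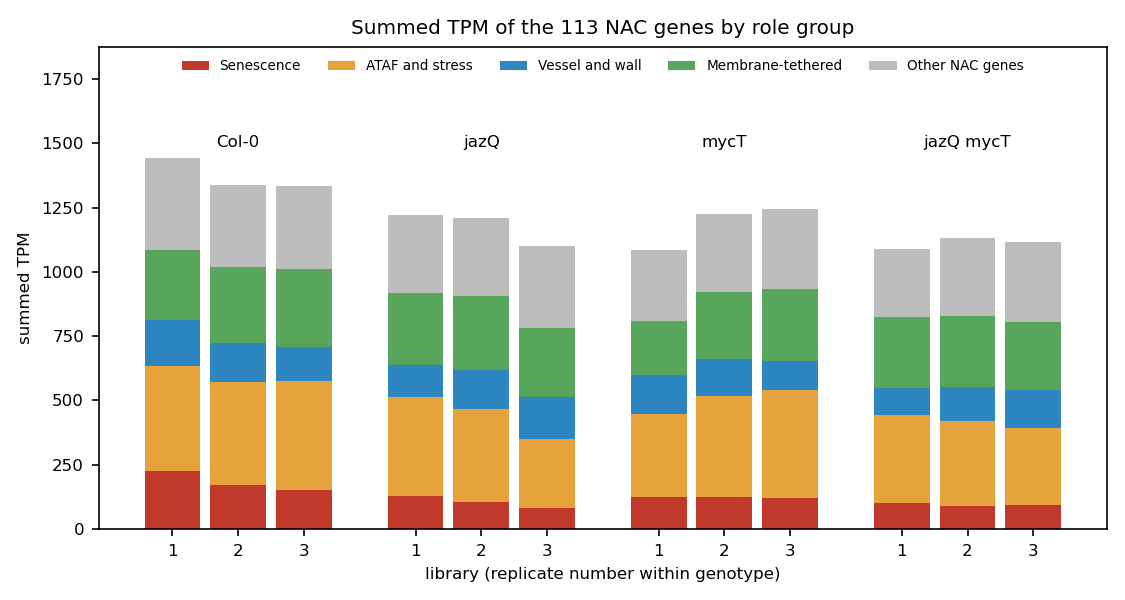
Summed TPM of the 113 NAC genes in each of the 12 libraries (y axis, linear from 0; x axis, replicate number within genotype), stacked by role group. The Col-0 bars reach 1333 to 1442 TPM and all mutant bars end at or under 1244 TPM, and the senescence group is between 153 and 224 TPM in Col-0 and at most 128 TPM in the mutants.

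Gene by gene the differences were small and tilted downwards. The counts were tested by the quasi-likelihood method of edgeR, p-values were adjusted by Benjamini and Hochberg's procedure over 20888 genes, and a gene was called at an adjusted p under 0.05. Every adjusted p below comes from this test unless another tool is named. In jazQ relative to Col-0, 3 of the 75 tested members were called and all 3 were lower, which is 4% of the members beside 2.86% of all genes tested, and 1.11% of all genes were called lower and 1.75% higher. In mycT 1 member was called, lower, which is 1.33% beside 1.8% of all genes, where 0.847% were lower and 0.957% higher. In jazQ mycT 6 members were lower and 1 was higher, which is 9.33% beside 5.48% of all genes, where 2.68% were called lower and 2.81% higher. The log2 fold change was negative in 72% of the members in jazQ and 62.7% in mycT, with 66.7% in jazQ mycT, beside 51.8%, 50.5% and 50.9% of all genes tested. The medians of the members were −0.10, −0.082 and −0.12, beside −0.0069, −0.0026 and −0.0039 over all genes. These 3 comparisons share the Col-0 libraries, so their tilts are not independent of each other.

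The octuple mutant was also compared with jazQ and with mycT. In jazQ mycT relative to jazQ none of the 75 members was called by edgeR's test, where 2.21% of all genes were (1.33% higher, 0.876% lower), 2 members had an unadjusted p under 0.05 (2.67%, beside 15.5% of all genes), and the Wald test of DESeq2 also called 0. The median of the members was −0.0024 in that comparison. In jazQ mycT relative to mycT 2 members were higher and 2 were lower, which is 5.33% beside 7.83% of all genes, where 4.05% were higher and 3.77% lower. The interaction, which subtracts the difference between mycT and Col-0 from that between jazQ mycT and jazQ, called 0 members by edgeR's test and 0 by that of DESeq2, where 0.579% of all genes were called by edgeR (0.469% positive, 0.11% negative). An unadjusted p under 0.05 was reached by 6 members, 8% of those tested beside 11.3% of all genes. These 6 were ATAF1, ANAC017, SMB, ANAC047, ANAC050 and ANAC059, with log2 values from −1.03 for SMB to 0.67 for ANAC047. In all, 9 members were called in at least 1 comparison, in 15 pairs of gene and comparison, of which 12 were lower and 3 higher.

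**Figure D2:**
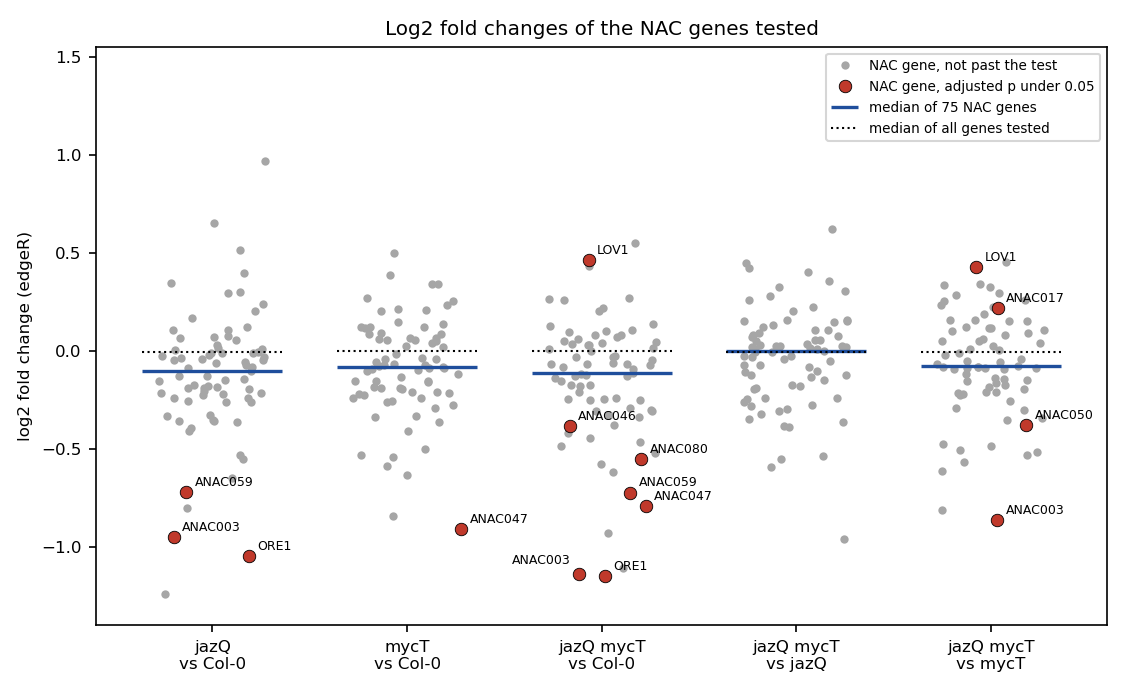
Log2 fold changes from edgeR (y axis) of the 75 NAC genes tested in 5 comparisons (x axis), with called genes in red and named, the median of the NAC genes as a solid line and that of all genes tested as a dotted line. The NAC median lies at −0.10, −0.082 and −0.12 in the 3 comparisons with Col-0, and at −0.0024 in jazQ mycT relative to jazQ.

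Among the senescence regulators, ORE1 and its close relative ANAC059 fell in jazQ and in jazQ mycT. ORE1 (ANAC092, AT5G39610; TAIR10.1 chromosome 5, 15858398 to 15859911, minus strand) is a master activator of leaf senescence and cell death. Its TPM was 123.07, 81.33 and 70.93 in Col-0 replicates 1, 2 and 3, 60.18, 43.81 and 28.43 in jazQ, 60.47, 54.46 and 50.92 in mycT, and 41.21, 35.30 and 38.47 in jazQ mycT. Every mutant library lay below every Col-0 library, and jazQ overlapped both other mutants while mycT stood wholly above jazQ mycT. The log2 fold change was −1.05 in jazQ (standard error 0.25, edgeR adjusted p = 0.0408), −0.64 in mycT (standard error 0.24, edgeR adjusted p = 0.200) and −1.15 in jazQ mycT (standard error 0.24, edgeR adjusted p = 0.0163). The call in jazQ was lost without Col-0 replicate 1 (edgeR adjusted p = 0.164), Col-0 replicate 2 (0.0813), jazQ replicate 2 (0.130), jazQ replicate 3 (0.0932), mycT replicate 2 (0.0583), jazQ mycT replicate 2 (0.0601) or jazQ mycT replicate 3 (0.0584), with only Col-0 and jazQ in the fit (0.0990), and by limma on log2(TPM + 1) without a filter (0.0910). In jazQ mycT it was lost without Col-0 replicate 1 (0.0726) or either of jazQ mycT replicates 2 (0.0818) and 3 (0.0726), and the log2 fold change without Col-0 replicate 1 was −0.89. Relative to mycT, ORE1 was at −0.52 in jazQ mycT (standard error 0.25, edgeR adjusted p = 0.230), which edgeR called only with those genotypes alone in the fit (0.0430) or with the replicate block (0.0424).

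ANAC059 (AT3G29035; chromosome 3, 11033665 to 11035308, plus strand), also known as ORS1 and a promoter of senescence like ORE1, was at 69.22, 52.96 and 42.75 TPM in the Col-0 replicates. In jazQ it was at 36.16, 31.12 and 32.83 TPM, in mycT at 34.63, 39.31 and 35.38 TPM and in jazQ mycT at 32.50, 27.31 and 32.79 TPM. Col-0 again lay above all 9 mutant libraries, and jazQ and jazQ mycT overlapped. The log2 fold change was −0.72 in jazQ (standard error 0.15, edgeR adjusted p = 0.0210), −0.50 in mycT (standard error 0.14, edgeR adjusted p = 0.0997) and −0.72 in jazQ mycT (standard error 0.14, edgeR adjusted p = 0.0114). The call in jazQ was lost without Col-0 replicate 1 (edgeR adjusted p = 0.0724), Col-0 replicate 2 (0.0527), or either of jazQ replicates 2 (0.0885) and 3 (0.0661), and by limma on log2(TPM + 1) without a filter (0.0666), and that in jazQ mycT without jazQ mycT replicate 2 (0.0586). The fall in mycT was called by DESeq2 (adjusted p = 0.0176) and by edgeR without Col-0 replicate 3 (0.0280).

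ANAC046 (AT3G04060; chromosome 3, 1053360 to 1055196, minus strand), which switches on chlorophyll breakdown, had a narrow spread in Col-0 with 8.09, 8.25 and 8.48 TPM. It was at 7.58, 7.06 and 6.02 TPM in jazQ, 6.64, 6.78 and 7.04 TPM in mycT and 5.63, 5.87 and 6.20 TPM in jazQ mycT. All mutant libraries lay below Col-0 in TPM, yet only the fall in jazQ mycT passed the test, with a log2 fold change of −0.39 (standard error 0.10, edgeR adjusted p = 0.0462). That call sits at the threshold. It was lost without any of the 3 Col-0 libraries (edgeR adjusted p = 0.0955, 0.109 and 0.102 for replicates 1, 2 and 3), any of the 3 mycT libraries (0.0631, 0.0633 and 0.0548), any of the 3 jazQ mycT libraries (0.0789, 0.162 and 0.141) or jazQ replicate 2 (0.0589), without a filter on low counts (0.0596), with only the genotypes compared (0.0596), with the replicate block (0.0590), without both libraries richest in rRNA (0.0910) and by DESeq2 (0.117). Of the other 3 members of the senescence list, all tested, none was called in any comparison. NAP, which promotes senescence through abscisic acid, was at 11.65, 15.49 and 16.77 TPM in Col-0 and 11.22, 9.87 and 3.54 TPM in jazQ (log2 fold change −0.80, standard error 0.34, edgeR adjusted p = 0.258), and ANAC042 (JUB1), which delays senescence, was at −0.030 in jazQ and 0.062 in jazQ mycT on the log2 scale. ANAC087, which acts with ANAC046 in cell death of the root cap, had −0.29 in mycT (standard error 0.097, edgeR adjusted p = 0.147). Over the 6 genes the median log2 fold change was −0.49 in jazQ and −0.24 in mycT, with −0.45 in jazQ mycT, and 2, 0 and 3 of them were called lower, beside 1.11%, 0.847% and 2.68% of all genes tested. The list was chosen with earlier results of these data known, so these shares are no test of it.

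ANAC047 was the only NAC gene called by edgeR in mycT relative to Col-0, and it was also called in jazQ mycT. ANAC047 (AT3G04070; chromosome 3, 1061300 to 1063234, minus strand), also named SHYG, drives the upward bending of petioles in flooded plants. Its TPM was 23.86, 16.03 and 15.25 in Col-0, 13.07, 10.83 and 14.11 in jazQ, 9.46, 9.38 and 8.82 in mycT and 9.09, 9.74 and 11.19 in jazQ mycT. The mycT libraries lay below all jazQ and Col-0 libraries, and the jazQ mycT libraries overlapped both mycT and jazQ. The fold change on the log2 scale was −0.91 in mycT (standard error 0.15, edgeR adjusted p = 0.0141), −0.79 in jazQ mycT (standard error 0.15, edgeR adjusted p = 0.00893) and −0.55 in jazQ (standard error 0.15, edgeR adjusted p = 0.0754). The call in jazQ mycT was kept in every fit run here. That in mycT was lost with only Col-0 and mycT in the fit (edgeR adjusted p = 0.0896) and without both libraries richest in rRNA (0.0602), and the fall in jazQ passed by DESeq2 (adjusted p = 0.0361), with the replicate block (0.0445) and without Col-0 replicate 3 (0.0408). The interaction of ANAC047 was 0.67 on the log2 scale (standard error 0.22, unadjusted p = 0.00943, edgeR adjusted p = 0.274). Its neighbour ANAC046 begins 6103 bp away on the same strand.

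ANAC003 followed the JAZ mutations. ANAC003 (AT1G02220; chromosome 1, 428650 to 430720, minus strand) was at 13.79, 10.43 and 9.40 TPM in Col-0 and 7.59, 8.35 and 10.69 TPM in mycT, and at 6.15, 5.08 and 6.28 TPM in jazQ and 4.20, 4.28 and 5.90 TPM in jazQ mycT. Both lines with JAZ insertions lay below both lines without them, and Col-0 overlapped mycT. Relative to Col-0 the log2 fold change was −0.95 in jazQ (standard error 0.17, edgeR adjusted p = 0.0109) and −1.14 in jazQ mycT (standard error 0.17, edgeR adjusted p = 0.00175), and it was −0.87 in jazQ mycT relative to mycT (standard error 0.17, edgeR adjusted p = 0.0101). In mycT it was −0.28 relative to Col-0. The call of jazQ mycT against Col-0 was kept in every fit run. That of jazQ was lost without Col-0 replicate 1 (edgeR adjusted p = 0.0577) or jazQ replicate 2 (0.0575) and by limma on log2(TPM + 1) without a filter (0.0556), and that against mycT without both libraries richest in rRNA (0.0537). Of the stretches of 50 bases in the longest mRNA of ANAC003, 1.1% also occur in ANAC005, which lies beyond ANAC004. ANAC003 lies in a run of NAC genes, and the next tested member of the run, ANAC004, had log2 fold changes of −0.22 in jazQ and −0.47 in jazQ mycT, without a call.

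LOV1 was the only member called higher by edgeR relative to Col-0. LOV1 (ANAC035, AT2G02450; chromosome 2, 647538 to 650820, plus strand) delays flowering in long days and takes part in cold tolerance. It was at 14.86, 13.71 and 15.05 TPM in Col-0, 15.11, 19.27 and 17.86 TPM in jazQ, 12.06, 14.52 and 15.35 TPM in mycT and 17.15, 18.32 and 20.94 TPM in jazQ mycT. The jazQ mycT libraries lay above all Col-0 and mycT libraries, and every jazQ library lay above the highest Col-0 library. The log2 fold change of jazQ mycT was 0.46 relative to Col-0 (standard error 0.095, edgeR adjusted p = 0.0135) and 0.43 relative to mycT (standard error 0.095, edgeR adjusted p = 0.0181), and that of jazQ relative to Col-0 was 0.24 (standard error 0.097, edgeR adjusted p = 0.232). The call against Col-0 was lost without Col-0 replicate 1 (edgeR adjusted p = 0.0580), Col-0 replicate 2 (0.0613) or jazQ mycT replicate 3 (0.0626), and that against mycT without mycT replicate 1 (0.0794), mycT replicate 2 (0.0523), jazQ mycT replicate 1 (0.0505), jazQ mycT replicate 3 (0.0766) or both libraries richest in rRNA (0.149). On the scale log2(TPM + 1) limma gave 0.35 (adjusted p = 0.0978) and 0.41 (0.0621). An antisense gene, AT2G02455, overlaps LOV1 in the RefSeq annotation and shares 21.7% of its stretches of 50 bases. The default of RSEM, which the study used, counts without regard to strand. Reads from the shared stretches therefore cannot be told apart, and the level of LOV1 is uncertain.

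**Figure D3:**
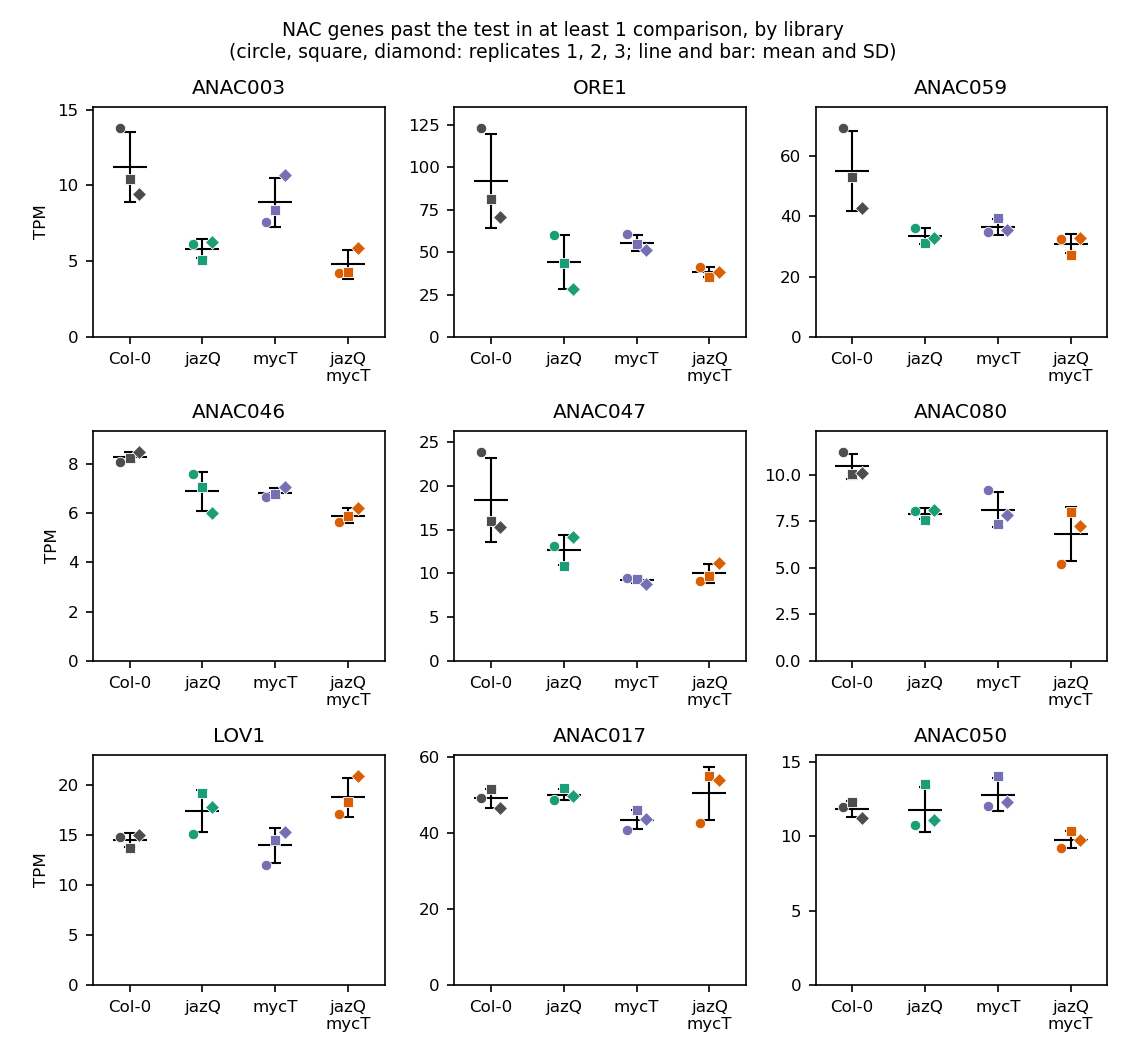
TPM (y axis, linear from 0) of the 9 NAC genes called in at least 1 comparison, by genotype (x axis). Each symbol is a library, with replicates 1, 2 and 3 as circle, square and diamond, and the line and bar give the mean and SD (n = 3). Col-0 replicate 1, the deepest library, is the highest of the 12 libraries for 5 of the 9 genes, ANAC003, ORE1, ANAC059, ANAC047 and ANAC080.

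ANAC050 and ANAC017 were called in jazQ mycT relative to mycT. ANAC050 (AT3G10480; chromosome 3, 3264194 to 3267695, plus strand) works with the histone demethylase JMJ14 in the repression of flowering genes. It was at 9.23, 10.34 and 9.76 TPM in jazQ mycT and 12.07, 14.06 and 12.30 TPM in mycT, without overlap, and at 11.95, 12.33 and 11.24 TPM in Col-0 and 10.74, 13.54 and 11.12 TPM in jazQ. In TPM, which was not scaled by TMM, jazQ mycT thus also lay below all jazQ and Col-0 libraries. Neither difference was called by edgeR. Relative to mycT the log2 fold change was −0.38 (standard error 0.087, edgeR adjusted p = 0.0200), and −0.18 relative to Col-0, without a call. It was lost without mycT replicate 1 (edgeR adjusted p = 0.0549), mycT replicate 2 (0.0788), jazQ mycT replicate 2 (0.0559), jazQ mycT replicate 3 (0.0905) or both libraries richest in rRNA (0.0766), and by limma on log2(TPM + 1) (0.0637). Its neighbours ANAC051, which shares the JMJ14 role, and ANAC053 lie 129 bp and a further 14 bp downstream. Both had no call and differed from mycT by −0.078 and 0.15 on the log2 scale, and ANAC050 shares 0.577% of its stretches of 50 bases with ANAC051.

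ANAC017 (AT1G34190; chromosome 1, 12451405 to 12454542, plus strand), which sits in the endoplasmic reticulum membrane and carries signals from mitochondria to the nucleus, was the called gene whose groups overlapped. It was at 40.87, 45.98 and 43.58 TPM in mycT and 42.48, 54.99 and 53.86 TPM in jazQ mycT, beside 46.46 to 51.61 TPM in Col-0 and 48.74 to 51.72 TPM in jazQ. The lowest jazQ mycT value belonged to replicate 1, the library with the largest share of rRNA. Relative to mycT the change was 0.22 on the log2 scale (standard error 0.053, edgeR adjusted p = 0.0276). It was lost without mycT replicate 1 (edgeR adjusted p = 0.0951), mycT replicate 2 (0.0538), mycT replicate 3 (0.0505), jazQ mycT replicate 2 (0.115), jazQ mycT replicate 3 (0.102) or both libraries richest in rRNA (0.0606), with only the genotypes compared (0.0561), and by limma on log2(TPM + 1), where the adjusted p was 0.295. The list of membrane-tethered factors held 14 genes, 13 of them found by the rule and the other NTL9, and 12 were tested. ANAC017 was their only call. Their median log2 fold change was −0.022 in jazQ, −0.086 in mycT, −0.0038 in jazQ mycT and 0.069 in jazQ mycT relative to mycT, and 10 of the 12 were negative in mycT. ANAC078 and ANAC053, which act together under proteasome stress, were at −0.064 or closer to 0 in jazQ and jazQ mycT, with standard errors of 0.060 and 0.072. NTL6 and TIP, an interactor of a viral coat protein, had wide spreads within genotypes, for NTL6 from 35.96 to 58.88 TPM in Col-0 and from 23.03 to 53.14 TPM in mycT, so the test could not show changes of the size seen for ANAC017 in them.

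ANAC080 joined ORE1 among the carriers of a miR164 site that fell. ANAC080 (AT5G07680; chromosome 5, 2435795 to 2437661, plus strand) was at 11.22, 10.02 and 10.09 TPM in Col-0, 8.04, 7.58 and 8.11 TPM in jazQ, 9.16, 7.34 and 7.85 TPM in mycT and 5.22, 7.98 and 7.27 TPM in jazQ mycT. All mutant libraries were below Col-0 in TPM, and jazQ mycT overlapped both other mutants. The log2 fold change was −0.55 in jazQ mycT (standard error 0.12, edgeR adjusted p = 0.0179), −0.36 in jazQ (edgeR adjusted p = 0.143) and −0.26 in mycT (edgeR adjusted p = 0.284). The call was lost without Col-0 replicate 1 (edgeR adjusted p = 0.0815), jazQ mycT replicate 1 (0.0713) or jazQ mycT replicate 3 (0.0645) and by limma on log2(TPM + 1) without a filter (0.0518). The miR164 list held 6 genes, of which 5 were tested. AT3G12977, the 7th carrier found by the search, was not on the list and had log2 fold changes of −0.18 in jazQ and 0.051 in mycT, with −0.25 in the octuple mutant, without a call. ANAC100, a close relative of ANAC080, was at −0.41 in mycT (standard error 0.16, edgeR adjusted p = 0.226) and −0.33 in jazQ mycT, NAC1, which acts in lateral root formation, was between −0.16 and −0.12 in the 3 mutants, and CUC2 between −0.25 and 0.11. The median over the 5 genes was −0.13 in jazQ and −0.26 in mycT, with −0.33 in jazQ mycT, with 1, 0 and 2 called lower, again beside 1.11%, 0.847% and 2.68% of all genes. This list too was chosen with earlier results known, and its calls include ORE1, already counted in the senescence list. The 3 MIR164 loci reached at most 1 count in a library, so the level of the microRNA itself could not be read from these files.

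The ATAF and stress group, which holds the known MYC2 targets, gave no call in any comparison, although 6 of its 7 members were negative in jazQ and in jazQ mycT. Summed over the group, TPM was 399 to 423 in Col-0, 268 to 385 in jazQ, 325 to 418 in mycT and 299 to 341 in jazQ mycT, so that the jazQ and jazQ mycT libraries lay below Col-0 while mycT overlapped it. RD26, which mediates dehydration and abscisic acid responses, was at 69.76, 66.87 and 61.55 TPM in Col-0, 68.50, 54.49 and 42.78 TPM in jazQ, 45.89, 55.40 and 50.47 TPM in mycT and 42.64, 45.98 and 41.15 TPM in jazQ mycT. The jazQ mycT and mycT libraries were below Col-0, and those of jazQ spread over both. Its log2 fold change in jazQ mycT was −0.48 (standard error 0.13, edgeR adjusted p = 0.0540), just outside the threshold, and it was called by DESeq2 (adjusted p = 0.00889), with the replicate block (0.0367), without a filter on low counts (0.0438), with only the genotypes compared (0.00886), without rRNA and organelle genes (0.0470) and without jazQ replicate 1 (0.0128) or jazQ replicate 3 (0.0104). Limma called it on log2(TPM + 1) with and without a filter (adjusted p = 0.0227 and 0.0496) and on log2(TPM + 0.1) (0.0233). These limma fits used TPM without TMM scaling and gave log2 fold changes of −0.60 and −0.61 on these scales.

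ANAC055 had the lowest log2 fold change of any member in jazQ. Its TPM was 16.52, 13.16 and 15.06 in Col-0, 9.47, 6.80 and 2.38 in jazQ, 11.02, 13.67 and 15.42 in mycT and 10.32, 9.44 and 7.27 in jazQ mycT. jazQ and jazQ mycT lay below Col-0 and overlapped each other, and mycT overlapped Col-0. In jazQ the log2 fold change was −1.24 (standard error 0.33, edgeR adjusted p = 0.0654) and −0.62 in jazQ mycT (standard error 0.31, edgeR adjusted p = 0.284). It was called in jazQ without jazQ replicate 1 (edgeR adjusted p = 0.0245) and without a filter on low counts (0.0463). ANAC019, the close relative of ANAC055, ranged from 2.21 to 5.68 TPM in Col-0 and from 1.44 to 2.24 TPM in jazQ mycT (log2 fold change −1.11, standard error 0.40, edgeR adjusted p = 0.141). ANAC102 was at 136.93, 139.82 and 139.78 TPM in Col-0 and 104.82, 109.76 and 99.89 TPM in jazQ mycT, without overlap, yet its log2 fold change of −0.30 did not pass edgeR's test (standard error 0.10, edgeR adjusted p = 0.114). It was called in jazQ by DESeq2 (adjusted p = 0.0499), and in jazQ mycT by limma on log2(TPM + 1) and log2(TPM + 0.1) (adjusted p = 0.0387 and 0.0398) and by edgeR without jazQ replicate 3 (0.0297). Without that library it was also called relative to mycT (edgeR adjusted p = 0.0476). ATAF1 and ANAC032, which share stress and senescence roles, were flat in jazQ and jazQ mycT, with log2 fold changes between −0.0095 and 0.070 and standard errors of at most 0.079. ATAF1 was at 0.21 in mycT and −0.21 in jazQ mycT relative to mycT (edgeR adjusted p = 0.133 and 0.0722), and the second was called without jazQ replicate 1 (0.0489).

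**Figure D4:**
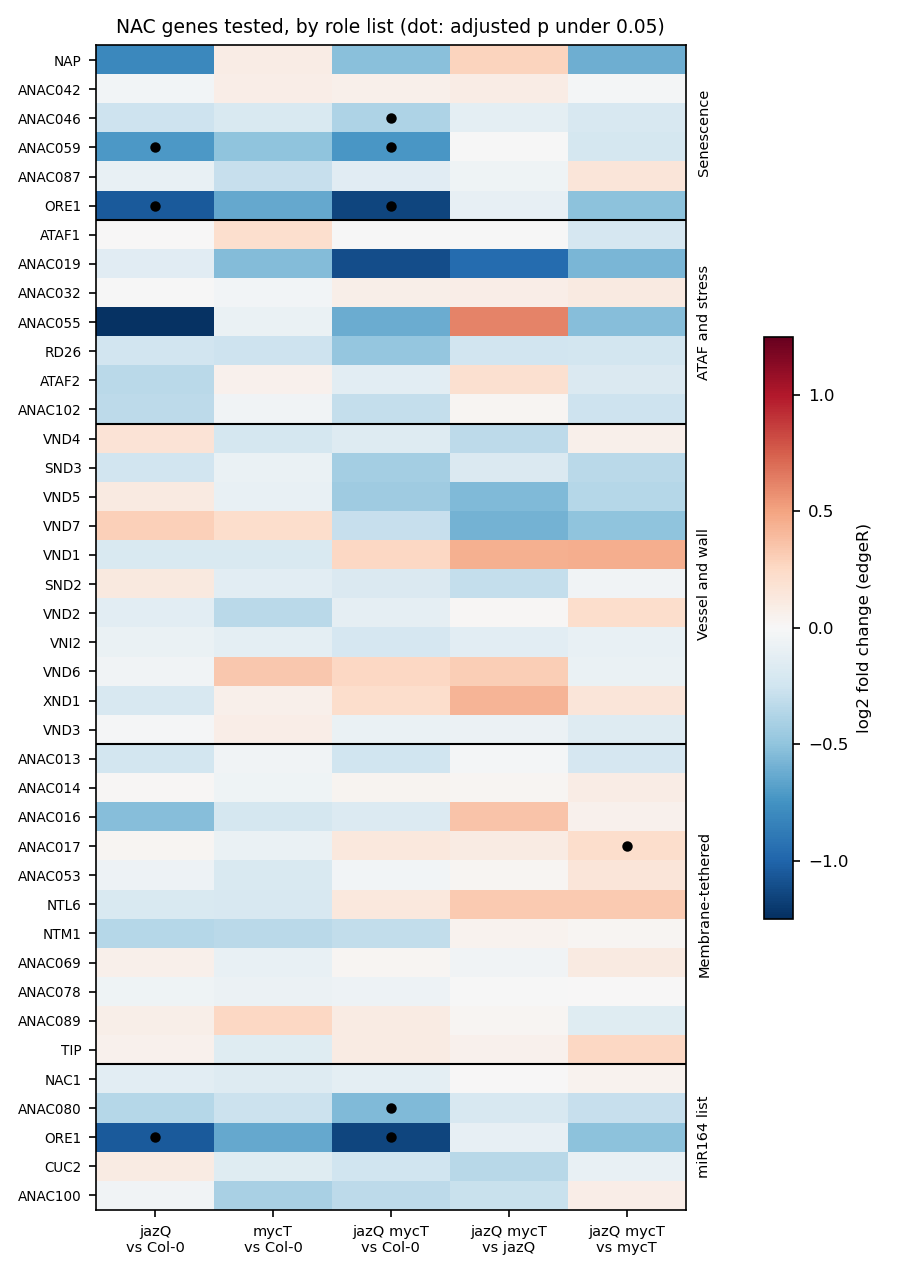
Log2 fold changes from edgeR (colour, blue lower and red higher) of the tested NAC genes on 5 role lists (rows) in 5 comparisons (columns), with a dot where the adjusted p is under 0.05. The dots fall on ANAC046, ANAC059 and ORE1 in the senescence list, on ANAC017 among the membrane-tethered factors and on ANAC080 and ORE1 in the miR164 list, and none on the ATAF or vessel lists.

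NAC genes of vessels, the root cap and organ boundaries showed no called change. Of 14 regulators of vessels and secondary walls, 11 were tested, none was called, and their medians were −0.047 in jazQ and −0.092 in mycT, with −0.16 in jazQ mycT. VND1 to VND7, which turn cells into xylem vessels, were expressed at between 0.67 and 5.05 TPM in every library and had standard errors of 0.19 to 0.43, while the fibre regulators NST1, NST2 and SND1 reached at most 0.14 TPM and were not tested. VNI2 made up most of the TPM of the group. It was at 159.42, 131.94 and 108.61 TPM in Col-0 and 86.09, 113.51 and 124.66 TPM in jazQ mycT, with overlap and a log2 fold change of −0.21 (standard error 0.15, edgeR adjusted p = 0.472). In the root cap, SMB, which completes cap cell maturation, had the highest log2 fold change of any member in jazQ, 0.97 (standard error 0.33, edgeR adjusted p = 0.145), from 0.99, 0.68 and 1.12 TPM in Col-0 to 1.56, 1.2 and 2.89 TPM in jazQ. The jazQ values lay above Col-0, and the increase was not called. BRN1 and BRN2, which act with SMB, were at −0.22 and 0.51 in jazQ, and FEZ, a regulator of cap stem cell divisions, was not tested.

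The boundary genes CUC2 and CUC3 had log2 fold changes between −0.26 and 0.11 in the 3 mutants with standard errors of 0.35 to 0.41. CUC1 was not tested. SOG1, the central activator of the DNA damage response, was at 10.54, 11.02 and 11.02 TPM in Col-0 and at 9.24 to 10.13 TPM in the 9 mutant libraries, so that Col-0 lay above all of them, with log2 fold changes of −0.19 in jazQ and −0.072 in mycT, with −0.069 in jazQ mycT and no call (edgeR adjusted p = 0.270, 0.722 and 0.688). ANAC044, which relays the DNA damage signal, had 0.65 in jazQ (standard error 0.31, edgeR adjusted p = 0.312). ANAC045 and ANAC086, which direct the loss of the nucleus in sieve elements, had log2 fold changes between −0.36 and 0.34 in the 3 mutants, with no call.

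Genes downstream of these NAC factors were read from lists of textbook targets. Of 7 tested genes for senescence, chlorophyll breakdown and abscisic acid synthesis that act downstream of NAC proteins, none was called in jazQ, and 1 was lower in mycT and 1 in jazQ mycT relative to Col-0. In both cases it was NYC1, a chlorophyll b reductase, at 175.8, 191.7 and 157.6 TPM in Col-0, 152.1, 166.5 and 118.4 TPM in jazQ, 115.1, 123.8 and 110.1 TPM in mycT and 84.3, 94.7 and 96.5 TPM in jazQ mycT. On the log2 scale NYC1 was at −0.26 in jazQ (edgeR adjusted p = 0.222), −0.50 in mycT (edgeR adjusted p = 0.0378), −0.83 in jazQ mycT (edgeR adjusted p = 0.000554) and −0.57 in jazQ mycT relative to jazQ (edgeR adjusted p = 0.0127). ORE1 and ANAC059 were thus called in jazQ where NYC1 was not, and in mycT only NYC1 was called by edgeR. The log2 fold changes in mycT were nevertheless −0.64 for ORE1 and −0.50 for ANAC059, beside −0.50 for NYC1. None of these genes had a called interaction, and the difference between the genes was not tested. AAO3, which makes abscisic acid, was higher in jazQ mycT than in mycT (log2 fold change 0.23, edgeR adjusted p = 0.0358). None of 7 tested targets of the wall regulators, the single tested target in the salicylic acid list and the 2 tested targets of ANAC017 was called. The targets were not refitted under other settings.

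Many NAC genes sit side by side on the chromosome. RefSeq places 16 pairs of members next to each other, 15 of them on the same strand, and in 8 pairs both members were tested. In jazQ mycT relative to Col-0 the only pair with both members called was ANAC046 and ANAC047. The log2 fold changes of both members had the same sign in 5 of the 8 pairs for jazQ, in 4 for mycT and in 3 for jazQ mycT, all relative to Col-0. In jazQ, ANAC055 was at −1.24 and its neighbour ANAC056 at 0.29, and in jazQ mycT ANAC019 was at −1.11 and its neighbour NAM at −0.025. Of the 113 members, 10 lie within 200 kb of a mutated JAZ or MYC gene, namely VNI2 at 20.8 kb from JAZ10, ANAC011 at 40.0 kb from MYC2, ANAC071 at 43.0 kb from MYC4, AT1G19040 at 44.4 kb from JAZ1, ANAC057 and ANAC058 at 53.5 and 195.4 kb from JAZ3, SND1, ANAC013 and ANAC014 at 63.8, 110.2 and 173.9 kb from MYC2 and ANAC096 at 67.0 kb from MYC3. Of these, AT1G19040, ANAC011, SND1 and ANAC071 were not tested and could not be called. None of the rest is among the 9 called members. As only 9 of all 75 tested members were called, an absence among so few genes says little.

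The promoters of the called members were searched for the G-box and a single variant of it that MYC proteins bind, because the study removed MYC2, MYC3 and MYC4. The window ran from 250 bases before to 50 bases after the annotated start in TAIR10.1. The G-box CACGTG, which is its own complement, was found in 7.68% of 27443 protein-coding genes, in 7 of the 113 members (6.19%), in 6 of the 75 tested members (8%) and in 0 of the 9 called members. The variant CACATG, or CATGTG on the other strand, was found in 12.9% of all genes, 14 members (12.4%), 7 tested members (9.33%) and 1 called member, LOV1. The 250 bases before the start are printed for LOV1, with its match in capitals, and for the 4 called members that fell most, none of which holds a match there.
LOV1, chr2:647288-647537, plus strand: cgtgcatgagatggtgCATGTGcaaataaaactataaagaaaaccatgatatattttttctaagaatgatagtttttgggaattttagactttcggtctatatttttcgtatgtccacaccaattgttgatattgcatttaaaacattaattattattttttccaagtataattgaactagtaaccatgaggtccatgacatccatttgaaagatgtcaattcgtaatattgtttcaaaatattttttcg
ORE1, chr5:15859912-15860161, minus strand: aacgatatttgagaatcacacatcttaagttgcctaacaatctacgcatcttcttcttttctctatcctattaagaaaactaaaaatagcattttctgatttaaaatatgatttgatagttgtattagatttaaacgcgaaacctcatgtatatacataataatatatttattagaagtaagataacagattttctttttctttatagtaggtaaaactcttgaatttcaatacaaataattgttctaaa
ANAC059, chr3:11033415-11033664, plus strand: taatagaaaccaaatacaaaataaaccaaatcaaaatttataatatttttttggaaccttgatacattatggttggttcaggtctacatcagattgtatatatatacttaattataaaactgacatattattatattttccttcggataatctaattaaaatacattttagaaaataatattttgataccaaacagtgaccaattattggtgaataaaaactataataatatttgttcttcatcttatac
ANAC047, chr3:1063235-1063484, minus strand: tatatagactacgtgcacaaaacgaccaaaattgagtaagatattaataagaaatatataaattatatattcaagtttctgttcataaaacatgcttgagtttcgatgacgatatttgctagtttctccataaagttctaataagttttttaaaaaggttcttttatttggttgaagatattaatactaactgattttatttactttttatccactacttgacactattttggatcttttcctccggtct
ANAC003, chr1:430721-430970, minus strand: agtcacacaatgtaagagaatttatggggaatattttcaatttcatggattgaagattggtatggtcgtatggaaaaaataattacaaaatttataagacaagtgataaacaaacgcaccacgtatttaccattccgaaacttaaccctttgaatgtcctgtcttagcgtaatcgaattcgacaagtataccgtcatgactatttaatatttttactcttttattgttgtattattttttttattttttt
A match is a description, and the absence of these letters from the window says nothing of binding elsewhere at the gene. Other variants of the G-box were not searched for.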

How the data were processed

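Single-end reads of 50 bp were filtered, mapped to the TAIR10 gene models and quantified by the authors with RSEM v1.2.11 under default parameters. The version and build also stand in the submitters' processing notes, while the aligner was not stated. The defaults of RSEM count without regard to strand. The expected counts, as deposited, were whole numbers and not normalized. TPM values, also from RSEM and deposited by the authors, divide out gene length and library total. All value columns were mapped to the 12 libraries, and 0 were left over.

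The counts were analysed with edgeR v4.0.16 under R v4.3.3 (functions glmQLFit, glmQLFTest, TMM, filterByExpr) with a term per genotype over 12 libraries, and adjusted p-values (Benjamini-Hochberg) were taken over the 20888 genes tested. Totals of 12336090 to 26347184 counts per library set the counting precision. On simulated data with 200 changed genes the jazQ contrast made 211 calls, 197 of them true and 14 false, and the interaction made 200, 187 true and 13 false. The changed genes lay above a minimum level and were changed by more than most NAC genes differed here. The recovery of smaller changes, or of changes in genes with few counts, was not tested. Pairs of libraries of a genotype differed by more than sampling noise (chi-square per degree of freedom of at least 3.48).

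The alternatives were size factors of DESeq2 (RLE), DESeq2's own Wald test (v1.42.0), no filter, a mean CPM of 1 or more, only the genotypes compared, a block for the replicate number, limma-trend (limma v3.58.1) on log2(TPM + 1) and log2(TPM + 0.1) for genes at a mean of 1 TPM or more and on log2(TPM + 1) without a filter, and the omission of each library. Fits without both libraries richest in rRNA, and without rRNA and organelle genes, were chosen after seeing the data. Col-0 and mycT libraries of the same number deviated together from their means (correlations of 0.251, 0.134 and 0.307 for replicates 1, 2 and 3). The labels do not say what a number marks, and the main fit did not pair these libraries. Only the alternative with a block for the replicate number did so, over all 12 libraries. No other pair of genotypes had all correlations over 0.1.

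The members and lists were chosen with earlier results of these data known. Named were every called member, the 10 most abundant, the members of the role lists (called ones first, then the most abundant) and those within 200 kb of a mutated locus. A few others were named after their values were seen: AT3G12910, ANAC001, ANAC004, ANAC051, ANAC056, ANAC074 and NAM. Sequences and coordinates come from RefSeq TAIR10.1, in which all 113 members have a gene. The files hold no coordinates, so its build was matched by gene identifier. Protein sequences were not analysed here. Tables and plots were made in Python v3.11.15 (pandas v2.3.3, numpy v2.4.6, matplotlib v3.10.9).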

Additional observations from a re-analysis of the deposited data

How the results depend on the processing

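No value of a named member that was called reversed its direction under any alternative. Of 135 planned fits of the 15 called pairs of gene and comparison, other than the omission of a library, 112 kept the call and 23 lost it, and of 180 fits without a library 134 kept it and 46 lost it. Of 39 uncalled pairs of the same genes, 3 were called in some fit and 7 changed sign in some fit.

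DESeq2 called 5 members in jazQ and 2 in mycT relative to Col-0, beside 3 and 1. Limma on log2(TPM + 1) without a filter called 0 in jazQ. With only the genotypes compared in the fit, 0 were called in mycT. In jazQ mycT relative to mycT, beside 4, limma called 1 on log2(TPM + 1), 1 on log2(TPM + 0.1) and 1 on log2(TPM + 1) without a filter. Without both libraries richest in rRNA, 0 were called in mycT relative to Col-0 and 0 in jazQ mycT relative to mycT. The limma fits used TPM without the TMM scaling of the counts. In jazQ mycT relative to Col-0, limma on log2(TPM + 1) gave −0.60 for RD26 and 0.35 for LOV1. There edgeR gave −0.48 and 0.46. The cause of the changed numbers was not tested, beyond fewer samples where libraries were left out.

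Without a library, the number called ranged from 0 to 4 in jazQ and from 1 to 2 in mycT, from 3 to 9 in jazQ mycT relative to Col-0, from 1 to 5 in jazQ mycT relative to mycT, and stayed at 0 to 0 in jazQ mycT relative to jazQ and in the interaction. In jazQ it was 0 without Col-0 replicate 1 or jazQ replicate 2 and 1 without Col-0 replicate 2 or jazQ replicate 3. Leaving out Col-0 replicate 3 gave 2 in mycT. For jazQ mycT against Col-0 it was 3 without Col-0 replicate 1 or jazQ mycT replicate 3 and 4 when jazQ mycT replicate 2 was omitted. Against mycT it was 1 without mycT replicate 1, mycT replicate 2 or jazQ mycT replicate 3 and 2 when jazQ mycT replicate 2 was omitted.

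With the replicate block 4 members were called in jazQ and 1 in mycT, 7 in jazQ mycT relative to Col-0, 0 in jazQ mycT relative to jazQ, 5 relative to mycT and 0 in the interaction. The block changed no call of mycT relative to Col-0, the comparison whose libraries of the same number deviated together. Members under 1 TPM rest on few counts, and no change in them was detectable at this depth unless it was large.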

Other observations

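Outside the 9 called members, a further set was called by at least 1 alternative fit. ANAC001 was lower in jazQ mycT on log2(TPM + 1) by limma (log2 fold change −0.36, adjusted p = 0.0439), where edgeR gave −0.31 (adjusted p = 0.0805). ANAC056 was higher in jazQ mycT without Col-0 replicate 3 (0.76, edgeR adjusted p = 0.0307), and ANAC074 was lower without jazQ mycT replicate 1 (−1.56, edgeR adjusted p = 0.0471). With all libraries these were at 0.55 (edgeR adjusted p = 0.110) and −0.93 (edgeR adjusted p = 0.202). AT3G12910, untested with all libraries, was called higher in jazQ mycT relative to Col-0 without Col-0 replicate 3 (4.08, edgeR adjusted p = 0.0377), on few counts.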
